A study of Mus musculus with 23 samples.

Results

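The genes described here are 10 chaperone genes of the heat shock response in TM4 cells, namely Hspa1a, Hspa1b, Hspa8, Hsph1, Dnajb1, Dnaja1, Hsp90aa1, Hspb1, Bag3 and Hspd1. They were given by name, and their probes were found by matching the RefSeq transcript that each array probe carries to these genes. This gave 13 probes of 9 genes, out of 55681 probes and 20145 named genes on the array. No probe matched Hspa1b. Hspa8 had 3 probes, Hsph1 and Dnaja1 had 2 each, and the other genes had 1. Hspd1 is often listed with the heat shock genes, but its protein, Hsp60, works mainly in mitochondria and not in the cytosol.

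TM4 is a line of immortalized mouse Sertoli cells, the cells that nurse germ cells in the testis. Cells were treated for 48 hr with 100 μM of a plasticizer or plasticizer metabolite dissolved in DMSO, and the control cells received the 1% DMSO vehicle alone, which every treated culture also contained. The compounds were MEHP, which is mono(2-ethylhexyl) phthalate, a monoester that the body makes from a common plasticizer, the commercial replacement DINCH, a cyclohexane dicarboxylate ester, DOM, or dioctyl maleate, DOS, or dioctyl succinate, and BDB, a dibenzoate ester of butanediol. DOM was the study's positive control. The labels number 4 replicates per group and 3 for DOS, each on its own 1-colour array, 23 arrays in all. The study describes them as biological replicates. All 5 comparisons with vehicle share the same 4 DMSO arrays, so they are not independent of each other.

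Cells keep a set of chaperones that hold unfolded proteins and help them to fold. When unfolded proteins build up, heat shock factor 1 is released from the chaperones that restrain it, forms trimers, and binds heat shock elements in front of chaperone genes. A heat shock element is a row of inverted GAA repeats, and the inducible HSP70 genes, the HSP110 gene Hsph1, the J protein genes Dnajb1 and Dnaja1, and Bag3 are among its best known targets. In the testis heat shock proteins are studied because male germ cells are sensitive to heat.

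The promoters are shown because heat shock factor 1 is known to act through elements in front of many of these genes. Only pairs of inverted repeats were searched here, not the whole row. RefSeq promoter windows on GRCm38.p6, running from 250 bases before to 50 bases after a start site, were found for 8 of the 10 genes, and were searched on both strands for the pairs of inverted repeats GAANNTTC and TTCNNGAA, each of which reads the same on either strand. At least 1 pair lay in a window of 7 genes, and in 8 of the 13 windows found. Among all 32851 windows 15.1% held a pair. Dnajb1 had none in either window, and the only pair of Bag3 began 42 bases after its start site. The stretches below hold the pairs that lay before a start site of 5 genes, in capitals, and overlapping pairs run together. Each is read 5′ to 3′ along the gene.
Hspa1a, chr17:34972227-34972286, minus strand: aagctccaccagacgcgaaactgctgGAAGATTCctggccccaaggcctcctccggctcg
Hspb1, chr5:135887794-135887853, plus strand: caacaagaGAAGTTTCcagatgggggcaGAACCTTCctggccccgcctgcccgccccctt
Dnaja1, chr4:40722318-40722377, plus strand: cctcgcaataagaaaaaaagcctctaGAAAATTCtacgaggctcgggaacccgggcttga
Hsph1, chr5:149636352-149636381, minus strand: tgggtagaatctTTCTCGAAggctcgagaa
Hspd1, chr1:55088053-55088082, minus strand: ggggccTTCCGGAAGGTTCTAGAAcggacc
The window of Hspa1b differed from that of Hspa1a at 4 of 300 bases, and the coding parts of these neighbouring genes are known to be nearly identical, so the signal of a probe for one cannot be taken as free of the other. A match is a description of the letters and not evidence of binding.

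The level of a probe is the log2 of its processed signal relative to the 75th percentile of all probes on the same array, so a level of 3 means 8 times that percentile and a negative level means a dimmer probe. A relative level of this kind cannot tell fewer expressing cells from less RNA per cell. Between 43.4% and 52.2% of the probes were well above background on an array, and no spot of any array was marked as saturated. The arrays lay on 3 slides. The DMSO, DOM and DOS arrays occupied rows 2 and 4 of the slides, and the MEHP, DINCH and BDB arrays rows 1 and 3, so for the last 3 compounds the row and the comparison with DMSO cannot be told apart. Of 15 Sertoli cell markers 7 were well above background on all DMSO arrays (Sox9, Gata4, Kitl, Inha, Inhbb, Dmrt1 and Rhox5), while Wt1, Amh, Amhr2, Fshr, Clu, Cldn11, Trf and Gata1 were not. The other testis cell types were marked by Cyp17a1 alone of 6 Leydig cell genes, Prm1 of 5 germ cell genes, Acta2 and Cnn1 of 4 peritubular myoid cell genes, and Csf1r of 4 macrophage genes. Only 5 of the 6 Leydig cell genes and 3 of the 4 macrophage genes had a probe.

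Of the 9 genes with a probe, 7 could be tested. Hspa1a, the stress-inducible HSP70, was not well above background on any of the 23 arrays, and its levels ran from -7.06 to -4.62. Hspb1, the small heat shock protein Hsp27, was well above background only on the array of MEHP replicate 1, at -4.55, and lay between -6.82 and -5.07 on the others. No difference is therefore given for these genes, and for them no response to any compound was measurable on these arrays. The brightest probes of Hspa8, the constitutive HSP70, and of Dnaja1, Hspd1, Hsp90aa1, Dnajb1, Hsph1 and Bag3 were well above background on every array, with mean levels in DMSO of 8.49, 6.95, 6.91, 6.24, 5.53, 4.54 and 3.30. Probes differ in brightness for reasons other than abundance, so these levels do not rank the genes.

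**Figure D1:**
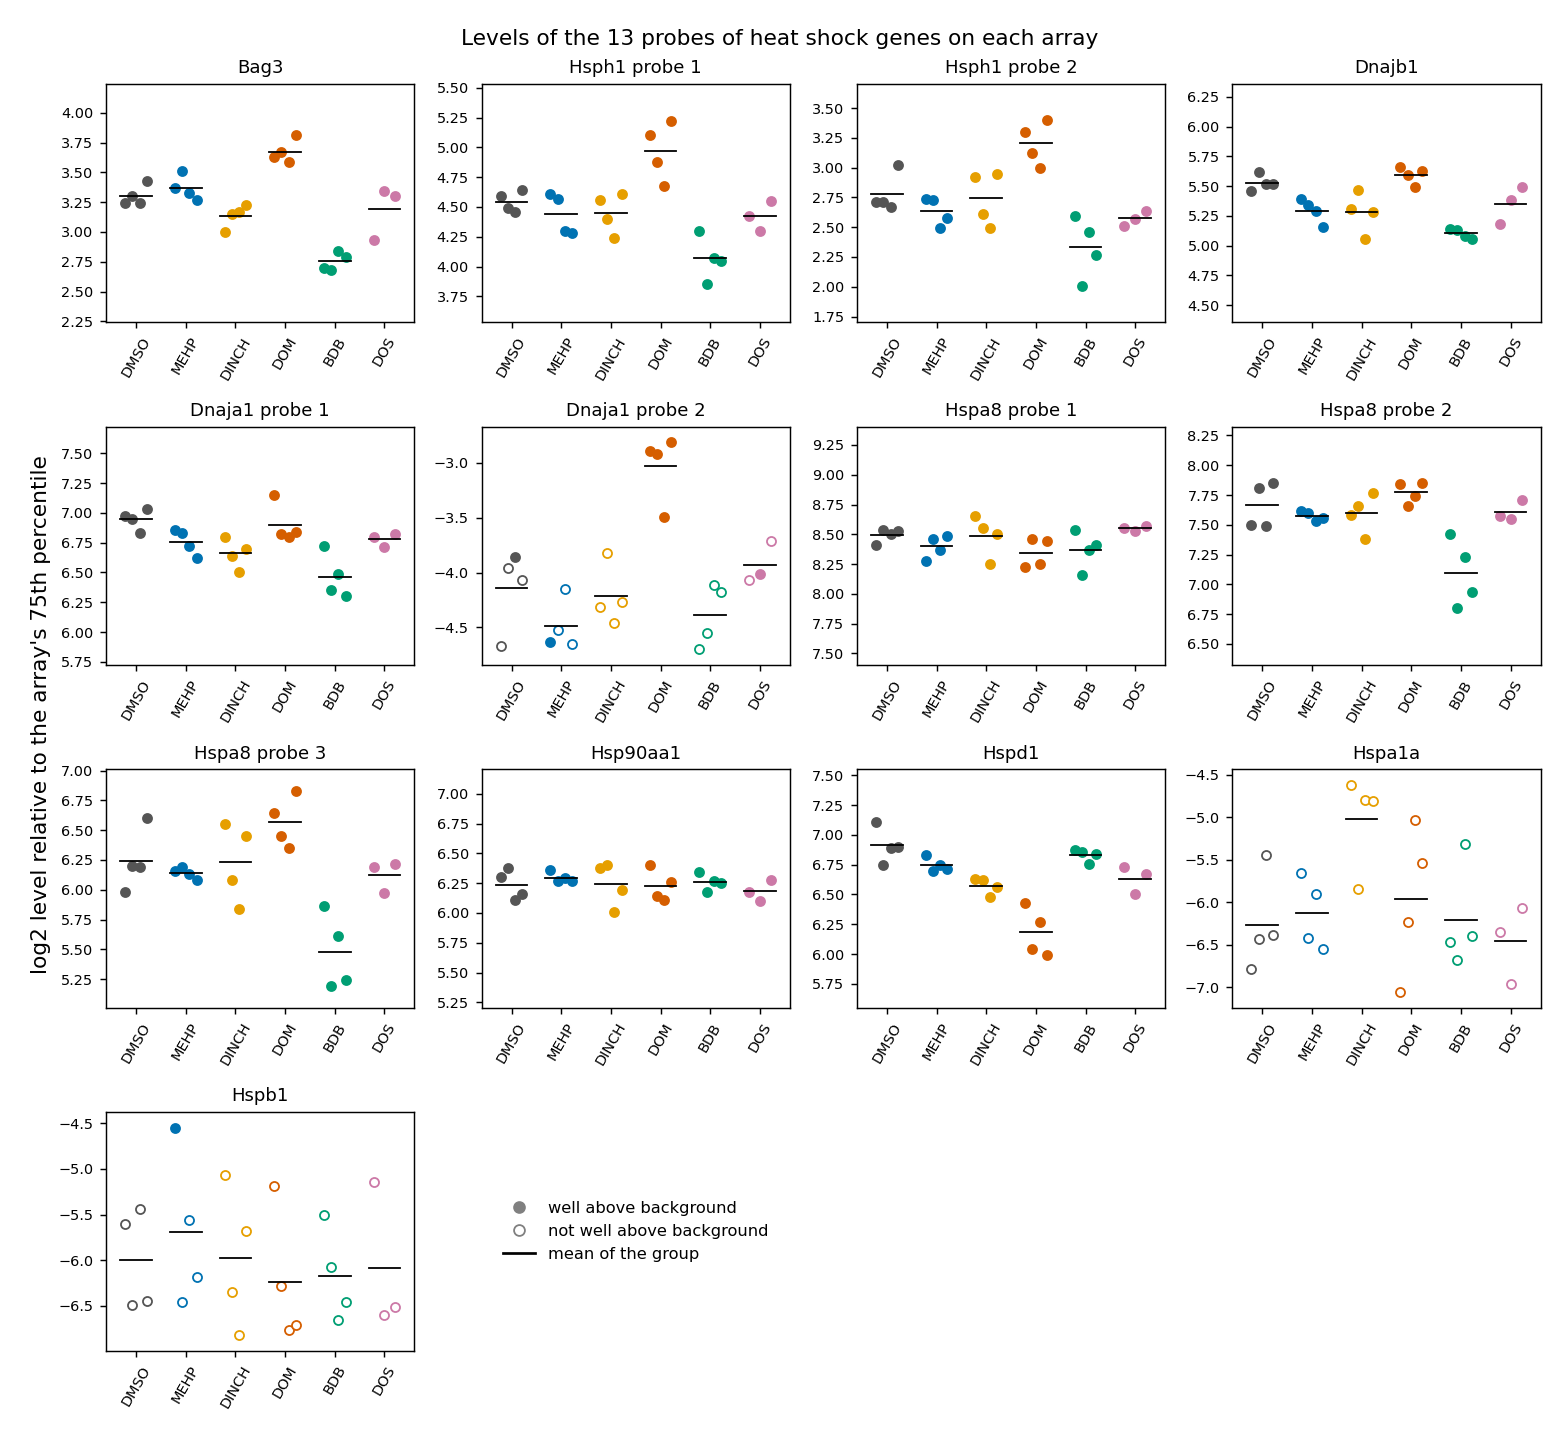
Each panel shows 1 probe, with a point for each array, grouped by treatment, and a line at the mean of the group. The vertical axis is the log2 level relative to the array's 75th percentile and has its own range in each panel. Open points were not well above background, as all points of Hspa1a were. In the Bag3 panel the 4 BDB arrays, from 2.68 to 2.84, lay below and the 4 DOM arrays, from 3.59 to 3.81, above every array of the other groups.

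With BDB, 5 of the 7 tested members had a probe on which every array stood lower than in DMSO, by amounts that did not pass the test. A probe was called when its adjusted p was below 0.05 and its change was more than 1.5-fold. None of the 7 genes was called, and 0% of all 11969 genes tested in this comparison were. At an unadjusted p below 0.05, however, 7 of the 10 member probes, all of them lower, stood against 14.4% of all tested probes in either direction and 9.37% of them lower. The 7 probes belonged to 5 genes: Bag3, Hsph1, Dnajb1, Dnaja1 and Hspa8. On each of these probes all 4 BDB arrays lay below all 4 DMSO arrays, which was the case for 6.79% of all tested probes. The median difference of the 10 probes was -0.46 on the log2 scale, beside -0.02 over all tested probes.

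Bag3, a co-chaperone that links HSP70 to autophagy, showed the smallest p of the members. Its levels were 3.24, 3.30, 3.24 and 3.43 in DMSO and 2.70, 2.68, 2.84 and 2.79 with BDB. The groups were well apart and the spread within each was small, with an SD of 0.09 in DMSO and 0.08 with BDB (n = 4 each). The difference was -0.55 (SE 0.09, 95% interval -0.74 to -0.35, adjusted p = 0.0817), which is 1.46-fold and so under the fold limit as well. It was -0.54, -0.51 and -0.63 within the 3 slides.

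The J proteins deliver unfolded proteins to HSP70 and start its ATP cycle. Dnajb1 had levels of 5.46, 5.62, 5.52 and 5.52 in DMSO and 5.14, 5.13, 5.08 and 5.06 with BDB, a difference of -0.43 (SE 0.08, adjusted p = 0.0895). The brighter probe of Dnaja1 had levels of 6.97, 6.95, 6.83 and 7.03 in DMSO and 6.72, 6.35, 6.49 and 6.30 with BDB, a difference of -0.48 (SE 0.11, adjusted p = 0.102). For both genes every BDB array was below every DMSO array. The dimmer probe of Dnaja1 was not well above background on any BDB array and was not tested here.

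Hsph1, the HSP110 protein that exchanges the nucleotide of HSP70, was read by 2 probes that gave like differences. On its brighter probe the levels were 4.59, 4.49, 4.46 and 4.64 in DMSO and 4.30, 3.85, 4.07 and 4.05 with BDB, a difference of -0.48 (SE 0.11, adjusted p = 0.0987). On the other probe the difference was -0.44 (SE 0.14, adjusted p = 0.19). Hspa8, which folds newly made proteins and is needed in unstressed cells, was read by 3 probes that disagreed. Probe 3, the dimmest of them, had levels of 5.98, 6.2, 6.19 and 6.60 in DMSO and 5.86, 5.19, 5.61 and 5.24 with BDB, the largest difference of any member at -0.77 (SE 0.18, adjusted p = 0.107). Probe 2 differed by -0.56 (SE 0.15, adjusted p = 0.147). On probe 1, the brightest, the groups overlapped and the difference was -0.12 (95% interval -0.34 to 0.10, adjusted p = 0.653). Within the slides probe 3 gave -0.12, -0.80 and -1.36, so its difference was not even across them, and it was called in 2 alternative fits, one with all groups together and one with a variance trend.

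The tested members outside this pattern were Hsp90aa1, the inducible cytosolic HSP90, and Hspd1. Hsp90aa1 lay between 6.11 and 6.38 in DMSO and between 6.18 and 6.34 with BDB, a difference of 0.02 (95% interval -0.19 to 0.22). Hspd1 lay between 6.75 and 7.11 in DMSO and between 6.76 and 6.87 with BDB, a difference of -0.08 (95% interval -0.29 to 0.14).

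Since the BDB arrays lay in other rows of the slides than the DMSO arrays, BDB was also compared with MEHP and with DINCH, whose arrays lay in the same rows and had the same dose, time and vehicle. These comparisons were chosen after the values had been seen. They use the same BDB arrays as the comparison with DMSO, so they are not independent of it or of each other. Against MEHP, 2 of the 7 genes were called, Bag3 and Hspa8, where 2.59% of all tested genes were. Bag3 had levels of 3.37, 3.51, 3.33 and 3.27 with MEHP, all above the BDB arrays, and the difference was -0.61 (SE 0.08, adjusted p = 0.0102). Hspa8 was called on probe 3 alone, which had levels of 6.16, 6.19, 6.13 and 6.08 with MEHP, and the difference was -0.66 (SE 0.14, adjusted p = 0.0347). Its probes disagreed here too. Probe 2 differed by -0.48 (adjusted p = 0.0669) and probe 1, the brightest, by -0.03 (95% interval -0.25 to 0.19, adjusted p = 0.869), with overlapping groups. The differences of the other probes of Hsph1, Dnajb1 and Dnaja1 from MEHP ran from -0.37 to -0.19 and their adjusted p-values from 0.101 to 0.197. Leaving out MEHP replicate 2 left no call, and leaving out any other single array except BDB replicate 1 left Bag3 alone.

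Against DINCH, 1 of the 7 genes was called, where 9.89% of all tested genes were. This was Hspa8, again on probe 3, whose DINCH levels of 6.55, 6.08, 5.84 and 6.45 reached down to those of BDB, and the difference was -0.76 (SE 0.20, adjusted p = 0.0315). Probe 2 differed by -0.50 (adjusted p = 0.0526) and probe 1, the brightest, by -0.11 (95% interval -0.39 to 0.16, adjusted p = 0.592). Leaving out BDB replicate 2, 3 or 4 or DINCH replicate 1 or 4 ended this call. Bag3 had levels of 3.0, 3.15, 3.17 and 3.23 with DINCH, all above those of BDB, and its difference of -0.38 (SE 0.09, adjusted p = 0.0254) passed the p limit but not the fold limit. Dnajb1 and the brighter Dnaja1 probe differed from DINCH by -0.18 (adjusted p = 0.294) and -0.19 (adjusted p = 0.323), smaller than their differences from DMSO. Whether these differences differ was not tested.

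**Figure D2:**
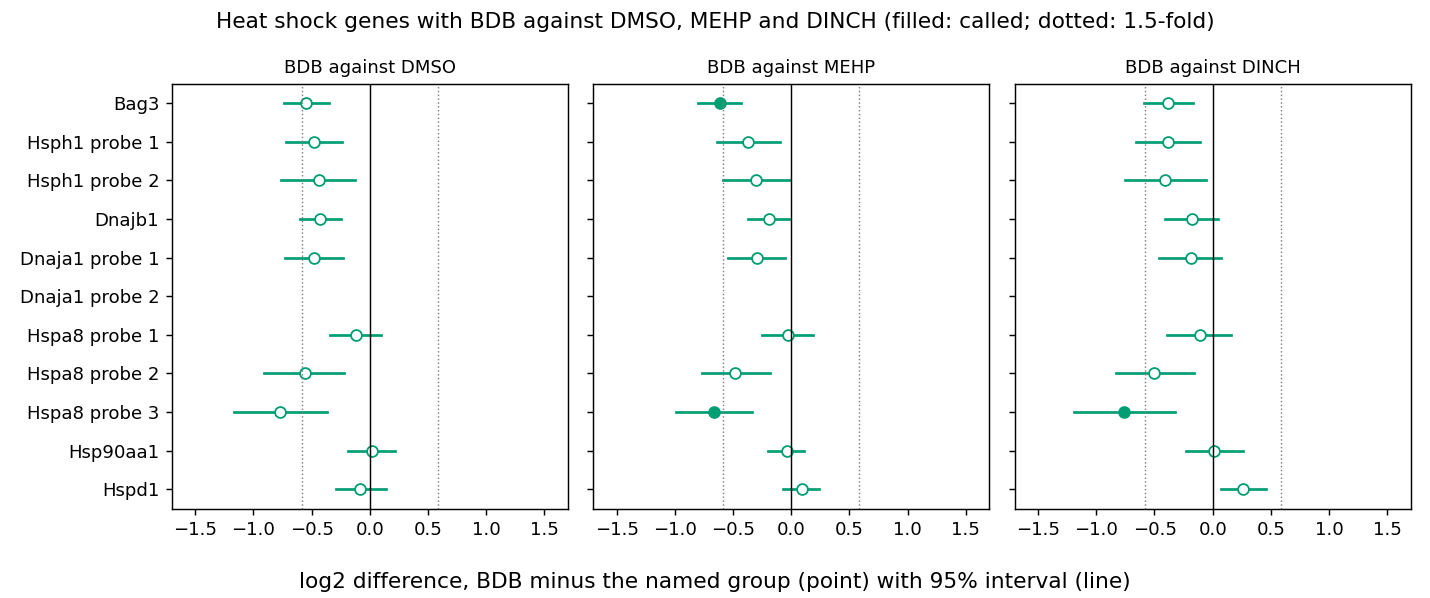
Each panel shows the log2 difference of BDB from the named group for the 11 probes of the tested genes, as a point with its 95% interval as a line. Filled points were called and dotted lines mark 1.5-fold. The dimmer probe of Dnaja1 was not tested in these comparisons and has no point. Bag3, both probes of Hsph1 and Hspa8 probes 2 and 3 lay left of 0 with their whole interval in all 3 panels, and Hsp90aa1 lay near 0. The 3 panels share the BDB arrays, so they are not independent of each other.

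With DOM, the heat shock genes moved in different directions, and how many were lower depended on the scaling. On the brightest probes 4 of the 7 tested genes were lower, with a median of -0.01, beside -0.08 over all tested probes. Under quantile normalization 1 was lower, Hspd1, and the median was 0.19, beside -0.01 over all tested probes. Of the 7 genes 2 were called, Hspd1 lower and Dnaja1 higher, where 20.5% of all 12005 tested genes were called. The call of Dnaja1 came from a probe that entered the test only because it was well above background on the DOM arrays, so nothing is read from it, and Hspd1 was the 1 gene called on a probe measured in both groups. Of the 11 member probes tested, 5 had an adjusted p below 0.05, where 30.9% of all tested probes did. The 11 and the 5 include that Dnaja1 probe, so nothing is read from this count either. Beside the called probes of Hspd1 and Dnaja1, those past that p were Bag3 and both probes of Hsph1, which were higher by less than 1.5-fold.

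Hspd1, the chaperonin of the mitochondrial matrix, had levels of 7.11, 6.75, 6.89 and 6.90 in DMSO and 6.43, 6.04, 6.27 and 5.99 with DOM. Every DOM array was below every array of the other groups. The difference was -0.73 (SE 0.13, 95% interval -1.02 to -0.44, adjusted p = 0.00314), a fall of 1.66-fold. It was -0.88, -0.56 and -0.90 within the slides. Under quantile normalization the difference was -0.54 (adjusted p = 0.0139), under the fold limit.

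Dnaja1 gave different answers on its 2 probes, which were both matched to the gene through RefSeq transcripts. The brighter probe had levels of 7.15, 6.82, 6.80 and 6.84 with DOM, among those of DMSO, and the difference was -0.04 (95% interval -0.29 to 0.20, adjusted p = 0.789). This difference ran from -0.13 to 0.19 over the alternative settings. The dimmer probe had levels of -4.67, -3.96, -3.86 and -4.07 in DMSO and -2.89, -2.92, -3.49 and -2.81 with DOM. It was well above background on all 4 DOM arrays and on only 1 of the 4 DMSO arrays, replicate 3. Its means of -4.14 in DMSO and -3.03 with DOM lay 1.11 apart, and after a different background correction, normexp, the difference was 0.21. These values are a description, since most DMSO arrays gave no level above background. Within the slides the dimmer probe differed by 1.77, 0.43 and 1.26.

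Bag3 and Hsph1, which act on HSP70 as exchange factors, were higher with DOM. Bag3 had levels of 3.63, 3.67, 3.59 and 3.81 with DOM, all above those of DMSO, and the difference was 0.37 (SE 0.09, adjusted p = 0.0158). The brighter probe of Hsph1 had levels of 5.10, 4.88, 4.68 and 5.22 with DOM, all above those of DMSO, and the difference was 0.43 (SE 0.13, adjusted p = 0.0325). The other Hsph1 probe differed by 0.43 (SE 0.12, adjusted p = 0.0285). These changes, of 1.30-fold to 1.35-fold, were past the p limit and under the fold limit. Those of Hsph1 had an adjusted p below 0.05 in 11 of 19 alternative settings on the brighter probe, and that of Bag3 in 17 of 19.

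The remaining tested members did not pass with DOM in the main fit. Dnajb1 had levels of 5.66, 5.59, 5.49 and 5.63, a difference of 0.06 (95% interval -0.14 to 0.26). Hsp90aa1 differed by -0.01 (95% interval -0.25 to 0.23). The 3 probes of Hspa8 differed by -0.15, 0.11 and 0.32 (adjusted p = 0.267, 0.49 and 0.143), from the brightest to the dimmest. Over the alternative settings these differences reached 0.05, 0.35 and 0.52 at the highest, and that of Hsp90aa1 reached 0.17. The adjusted p was below 0.05 in 1 of 18 settings for Hspa8 probe 2 and in 2 of 18 for probe 3. The DOM arrays also differed in the summed level of the Sertoli cell markers, which was 5.38 to 6.09 with DOM and 3.71 to 4.75 in DMSO on the log2 scale, with 3 of the 15 markers called, and 1 of the 4 myoid cell markers was called. The part of these in the results for the chaperones was not tested.

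**Figure D3:**
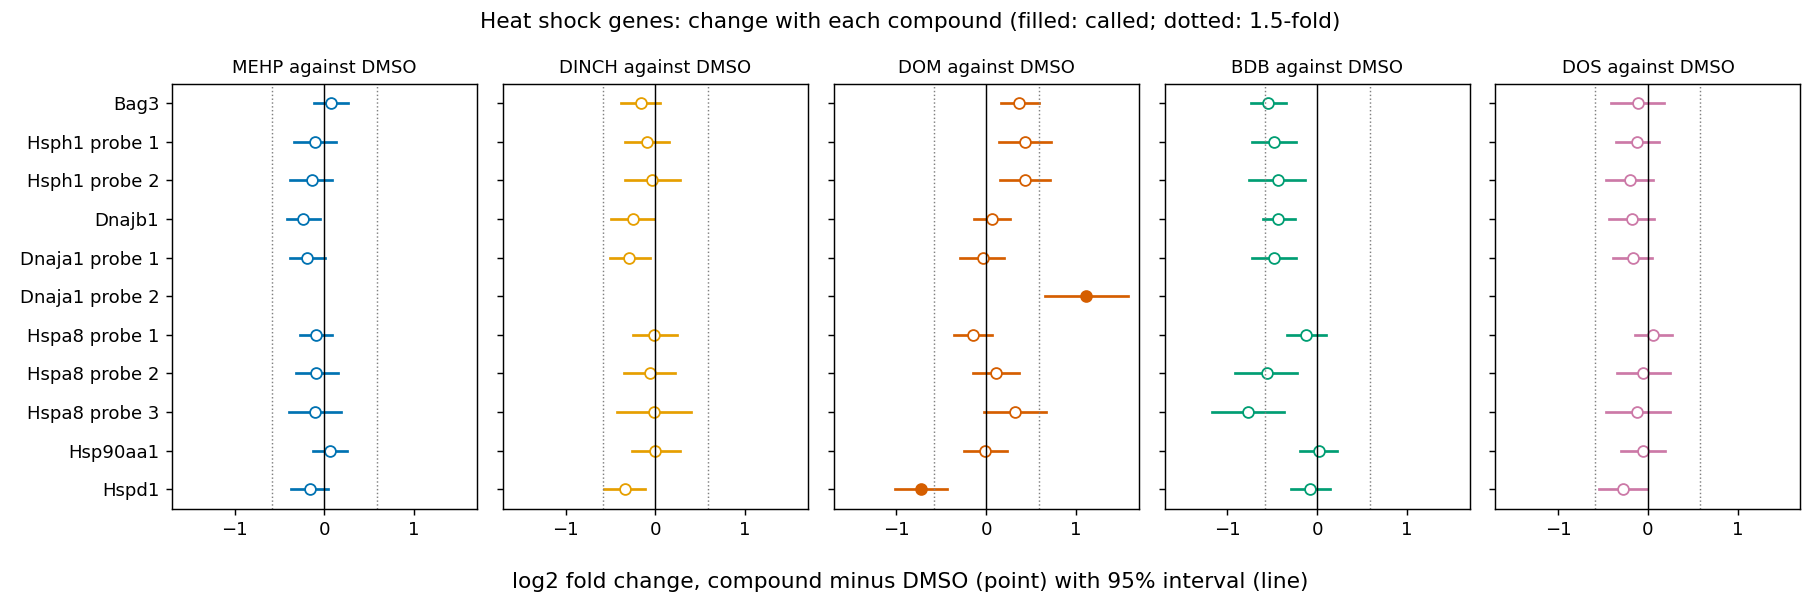
Each panel shows 1 compound against DMSO, with the log2 fold change of each probe of the tested genes as a point and its 95% interval as a line. Filled points were called, dotted lines mark 1.5-fold, and the dimmer probe of Dnaja1 was tested with DOM only, where 1 of the 4 DMSO arrays was well above background. The called points were Hspd1 at -0.73 and the dimmer Dnaja1 probe at 1.11, both with DOM, and the BDB panel shows 7 uncalled points whose intervals lay below 0.

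DOM and DOS carry the same dioctyl ester chains on different acids, maleate with a double bond and succinate without, and were given at the same dose and time. In this direct comparison 2 of the 7 genes were called, where 15.2% of all tested genes were. Hsph1 was higher with DOM than with DOS. Hsph1 probe 2 had levels of 3.30, 3.12, 3.0 and 3.40 with DOM and 2.51, 2.57 and 2.64 with DOS, a difference of 0.63 (SE 0.13, adjusted p = 0.0119), and its brighter probe differed by 0.55 (SE 0.15, adjusted p = 0.0354), under the fold limit. Bag3 differed by 0.49 (SE 0.13, adjusted p = 0.036), also under it, with DOS levels of 2.93, 3.34 and 3.30. The call of Dnaja1 again came from its dimmer probe, which was well above background on 1 of the 3 DOS arrays and entered the test only through DOM, so nothing is read from it. Its means lay 0.90 apart, or 0.03 after normexp. Hsph1 was thus the 1 gene called on a probe measured in both groups.

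Hspd1 had levels of 6.73, 6.50 and 6.67 with DOS, all above those of DOM, and the difference of -0.45 (SE 0.14, 95% interval -0.76 to -0.14, adjusted p = 0.0522) did not pass. Dnajb1, Hsp90aa1 and the brighter Dnaja1 probe differed between DOM and DOS by 0.25, 0.04 and 0.13 (95% intervals -0.01 to 0.51, -0.22 to 0.30 and -0.15 to 0.40). With 3 DOS arrays 1 library mattered: both calls were lost without DOS replicate 1, and that of Hsph1 without DOM replicate 4.

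With MEHP, DINCH and DOS none of the 7 genes was called, where 1.69%, 8.26% and 0% of all tested genes were. At an unadjusted p below 0.05 there was 1 member probe with MEHP, 3 with DINCH and 1 with DOS, of 10 each, beside 16.2%, 26.2% and 7.13% of all tested probes. The 95% intervals over the member probes together ran from -0.42 to 0.26 with MEHP, from -0.57 to 0.40 with DINCH and from -0.55 to 0.27 with DOS. No interval thus reached 1.5-fold in either direction.

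With DINCH the smallest p was that of Hspd1, whose levels of 6.63, 6.62, 6.48 and 6.56 were all below those of DMSO, and the difference was -0.34 (SE 0.10, adjusted p = 0.0654). With MEHP it was that of Dnajb1, whose levels of 5.39, 5.34, 5.29 and 5.16 were all below those of DMSO, and the difference was -0.24 (SE 0.08, adjusted p = 0.186). With DOS it was again Hspd1, which differed by -0.28 (SE 0.12, adjusted p = 0.689). Hspd1 thus had a mean level of 6.91 in DMSO, 6.83 with BDB, 6.75 with MEHP, 6.63 with DOS, 6.57 with DINCH and 6.18 with DOM. Each group overlapped with its neighbour in this order, except that DOM was apart from DINCH.

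To set the members beside the rest of the chaperone system, 82 further genes in 8 lists were examined, of which 76 were tested. The lists held the heat shock factors and their regulators, other HSP70 and HSP110 proteins, other J proteins, small heat shock proteins, HSP90 with its co-chaperones, nucleotide exchange factors and co-chaperones of HSP70, the TRiC chaperonin with prefoldin, and other heat-induced genes. Hsf1 and Hsf2, the heat shock factors, were not called in any comparison. Hsf1 differed from DMSO by -0.06 with DOM (adjusted p = 0.617) and by 0.22 with BDB (adjusted p = 0.281), and Hsf2 by -0.23 with DOM (adjusted p = 0.139) and -0.03 with BDB (adjusted p = 0.906).

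With DOM 5 of the 76 genes were called higher and 4 lower, beside 9.90% and 10.6% of all tested genes. Hmox1, the heme oxygenase, which oxidative stress induces as well as heat, rose by 3.24 on its brighter probe (adjusted p = 1.55e-05). The small heat shock protein gene Cryab rose by 1.27 (adjusted p = 0.00147) and the J protein gene Dnajb2 by 0.85 (adjusted p = 0.0015). The others called higher were so only on a dimmer probe. These were Dnajc14, at 0.66 beside 0.06 on its brightest probe (adjusted p = 0.666), and Hspa4, at 1.05 and 0.94 beside -0.25 on its brightest probe (adjusted p = 0.0735).

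The genes called lower with DOM included Hspa9 and Hspe1, whose proteins work with Hspd1 in mitochondria. Other mitochondrial chaperone genes of the lists were not called, so nothing is read from this about mitochondrial chaperones as a set. Hspa9, the mitochondrial HSP70, fell by 0.96 (adjusted p = 0.000526). Hspe1, the co-chaperonin that caps Hspd1, was called on probes 2 and 3, at -0.59 (adjusted p = 0.0042) and -0.80 (adjusted p = 0.0373), and was at -0.54 on its brightest (adjusted p = 0.00665). Its call on probe 3 was lost without DOM replicate 2 or 4 or DMSO replicate 1, 2 or 3. The other genes called lower were so only on dimmer probes. These were Ppid, a co-chaperone of HSP90, at -0.82 and -0.71 beside -0.52 on its brightest probe (adjusted p = 0.00266), and the J protein gene Dnajc21, at -0.60 beside -0.49 (adjusted p = 0.0496). Of the 14 genes of TRiC and prefoldin, which fold actin and tubulin, none was called, but 10 were lower at an adjusted p below 0.05 on at least 1 probe. Of all tested probes 17.2% were lower at that p. This is a share of single probes and not of genes, so it is not a like measure. The 10 genes were Cct2 to Cct5, Cct6a, Cct7, Cct8, Tcp1, Pfdn6 and Vbp1, and the median of the list was -0.41, beside -0.08 over all tested probes. Under quantile normalization 4 of the 14 were lower at that p and the median was -0.30.

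**Figure D4:**
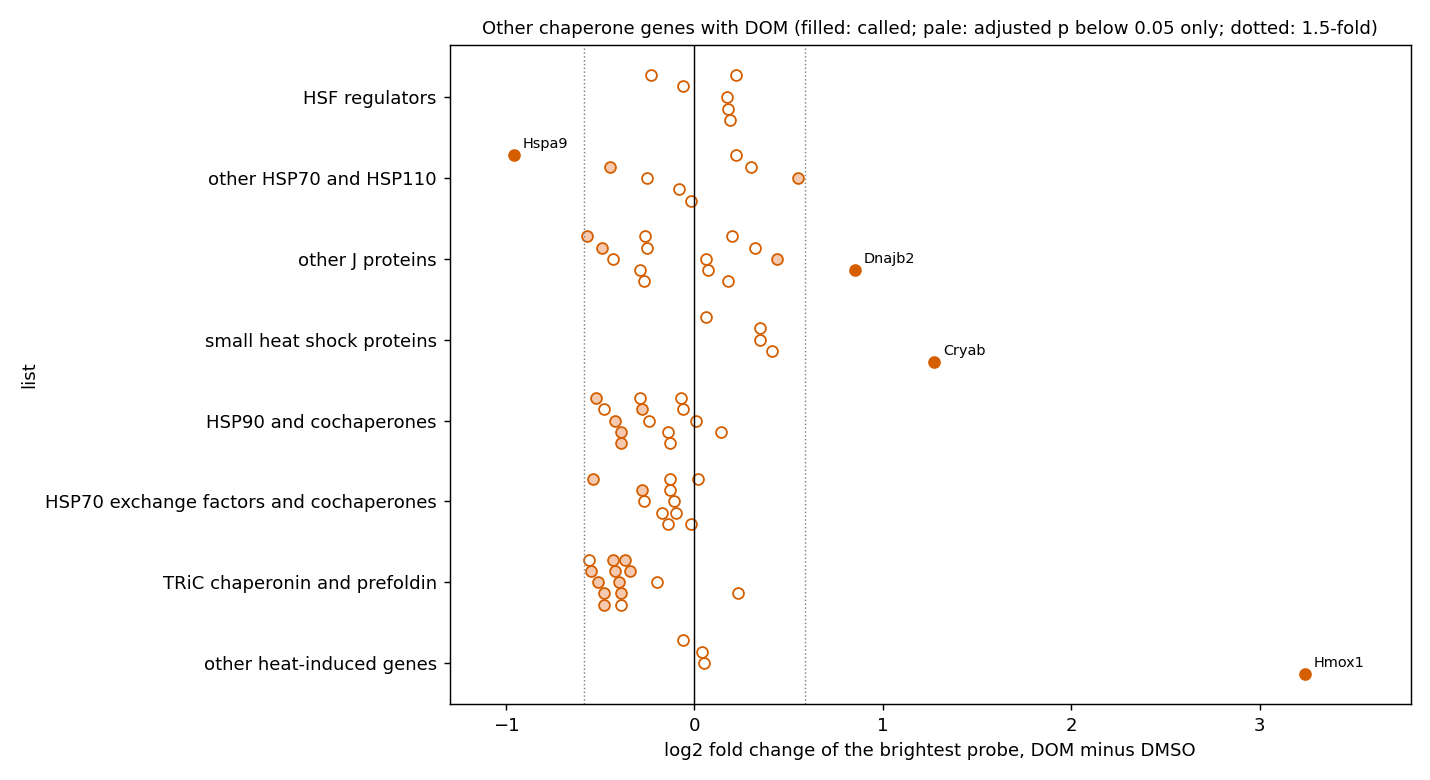
Each point is the brightest probe of 1 of the 76 tested genes, placed by its log2 fold change with DOM against DMSO and by its list. Filled points, with the name of the gene, were called, pale points had an adjusted p below 0.05 only, and dotted lines mark 1.5-fold. Genes called on a dimmer probe alone are not filled. The 4 filled points were Hmox1, Cryab and Dnajb2 to the right and Hspa9 to the left, and 13 of the 14 points of TRiC and prefoldin lay left of 0.

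The other compounds left most of these genes uncalled. With BDB and DOS none of the 76 was called in the main fit, beside 0% of all tested genes. Under normexp 2 of the 76 were called lower with BDB, both among the other HSP70 and HSP110 proteins. Over all genes 42 were called there. The median over the 76 on their brightest probes was -0.07 with BDB, beside -0.02 over all tested probes. The medians of the single lists with BDB ran from -0.10 to 0.20. With MEHP 3 were called, all higher, beside 1.13% of all tested genes: Hspb2, at 0.93 (adjusted p = 0.0183), Cryab, at 0.70 (adjusted p = 0.0312), both small heat shock protein genes, and Dnajb2 on its dimmer probe, at 0.65 (adjusted p = 0.0224) beside 0.41 on the brighter (adjusted p = 0.0394). Single arrays decided these calls. Without MEHP replicate 2 or DMSO replicate 3 all 3 were lost, as they were without MEHP replicate 4, and without MEHP replicate 1 or DMSO replicate 2 those of Cryab and Dnajb2 were, with that of Cryab also lost without DMSO replicate 4. With DINCH 4 were called higher and 1 lower, beside 4.25% and 4.02% of all tested genes. Hspb2 rose by 1.33, Cryab by 1.07, Dnajb2 on its dimmer probe by 0.92 and Hspa4l, an HSP110 relative, by 0.77, and Hspa4 was called lower on a dimmer probe, at -0.92 (adjusted p = 0.0498) beside -0.28 on its brightest (adjusted p = 0.0787). The calls of Hspb2 and Dnajb2 held without any single array. That of Hspa4 held in 1 of 8 such fits, without DINCH replicate 2. That of Hspa4l held in 3 of 8, and was lost without DINCH replicate 1 or 4 or DMSO replicate 2, 3 or 4. Cryab lost its call on both probes without DMSO replicate 3. MEHP and DINCH share the DMSO arrays and the rows of the slides.

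Against MEHP, BDB had 1 listed gene called, the J protein gene Dnajb4, at -0.69 (adjusted p = 0.0173), beside 1.47% of all tested genes called lower, and this call was lost without BDB or MEHP replicate 2 or 4. Against DINCH it had 6, all lower, beside 5.41% of all tested genes: Dedd2, from the list of heat shock factors and regulators, at -1.02, Hspb2 at -0.91, Cryab at -0.86, Dnajb4 at -0.79, Hspa4l at -0.78 and Dnaja4 at -0.62. Without BDB replicate 2 or 4 the calls of Cryab, Dnajb4 and Dnaja4 against DINCH were lost, without DINCH replicate 1 that of Dnaja4, and without BDB replicate 3 or DINCH replicate 4 that of Cryab, while those of Dedd2, Hspb2 and Hspa4l held without any single array. Dedd2 differed from DMSO by -0.57 with BDB (adjusted p = 0.0966). Between DOM and DOS, 5 listed genes were called higher with DOM (Hmox1, Hspa4, Cryab, Dnajb2 and Sqstm1) and 2 lower (Hspa9 and Ppid), beside 7.15% and 8.06% of all tested genes. Hspa4 and Ppid were called on dimmer probes only, with -0.18 and -0.36 on their brightest (adjusted p = 0.249 and 0.0714). The call of Ppid was lost without DOM replicate 4 or DOS replicate 1 or 4, that of Sqstm1 without DOM replicate 4, and that of Cryab on both probes without DOS replicate 4.

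Hsph1, measured alike by its 2 probes, serves to show which genes followed the same course over the arrays. Over the 23 arrays, which share 6 treatment groups, the level of Hsph1 on its brighter probe had a Pearson correlation of 0.83 with Bag3, 0.81 with Dnajb1 and 0.79 with Dnaja1. With Hspa8 it was 0.08 on probe 1, 0.82 on probe 2 and 0.90 on probe 3, with Hsp90aa1 0.18 and with Hspd1 -0.60. These are descriptions, which hold the differences between the groups. On the deviations from the group means the values for Bag3, Dnajb1 and Dnaja1 were 0.28, 0.45 and 0.74. Those for Hspa8 were 0.43 on probe 1, 0.65 on probe 2 and 0.77 on probe 3, for Hsp90aa1 0.55 and for Hspd1 0.13. By the correlation over the 23 arrays Bag3, Dnajb1 and Dnaja1 ranked 74, 163 and 215 among 12171 genes. Hsp90aa1, Hspa8 on its brightest probe and Hspd1 ranked 5052, 5713 and 11125. Among 12171 genes the closest to Hsph1 outside the members and lists were Tmem106b, Chp1 and Smcr8, at 0.90, and Fbxo28 and Pik3r4, at 0.89. On the deviations from the group means these genes had 0.65, 0.59, 0.66, 0.58 and 0.66, above the values for Bag3 and Dnajb1.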

How the data were processed

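Expression in TM4 cells was measured on 1-colour arrays. The authors extracted the deposited spot intensities with Agilent's software, which subtracts background. The authors' second file holds log2 values, which these comparisons show to be scaled to the 75th percentile and then centred probe by probe on the median. Each array's own intensities correlated with its column of that table at 0.9996 or more, and with another array's column at 0.407 at most. Column medians ran from -0.361 to 0.183. Here log2 intensities (floor of 1) were shifted to the 75th percentile over 59305 non-control spots, replicate spots were averaged without outliers. Probes were tested when well above background and not under the 20th percentile on all arrays of either group compared. Each pair of groups was fitted alone with limma 3.58.1 (R 4.3.3), with Benjamini-Hochberg adjustment over tested probes, and calls needed an adjusted p below 0.05 and more than 1.5-fold. A gene was called when any probe was, and its value is that of its brightest probe. Values within a slide rest on 1 or 2 arrays per group. All members were named, always Hsf1 and Hsf2, and of the lists the called genes, at most 12 per comparison. The genes of TRiC and prefoldin and Dedd2 with BDB were named after their values were seen. A further gene of the lists is not reported here. Likeness named the 5 genes with the highest correlation. The members, lists and tests were chosen with earlier results of these data known. Alternatives were quantile normalization, normexp (offset 50), no filter, detection on 1 array, slide or replicate block, 1 fit for all groups, outlier spots kept, a variance trend, the authors' table, the brightest probe only and leaving out each array. Steps were tested on simulated data. Promoters are from RefSeq (GRCm38.p6), while the array was designed on another build, so probes were given no positions. Figures were drawn with matplotlib 3.10.9.

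The replicate numbers are shared between groups. After the group means were removed, arrays with the same number correlated over 0.1 in every pair for DINCH (0.17 to 0.50), BDB (0.25 to 0.43) and DOS (0.20 to 0.45) against DMSO, for DOM against DOS (0.10 to 0.40) and for BDB against DINCH (0.15 to 0.37), and these numbers were taken as pairs from the values. They did not for MEHP (-0.14 to 0.45) or DOM (0.04 to 0.43) against DMSO, nor for BDB against MEHP (-0.15 to 0.34). The main fits did not use these pairs, which entered only as the replicate block among the alternatives.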

Additional observations from a re-analysis of the deposited data

Results flagged for a closer look

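In groups of 4 arrays, 65 combinations of a member probe and a group were examined for an array far from the others, and 4 stood out by Dixon's test. Chance alone gives about 1 in 20. For Hspa1a, DINCH replicate 2 had a level of -5.85 while the other DINCH arrays lay between -4.81 and -4.62, with none of them well above background. The second probe of Hsph1 had a level of 3.02 on DMSO replicate 4, and the other DMSO arrays lay between 2.67 and 2.71. The brighter probe of Dnaja1 had a level of 7.15 on DOM replicate 1, above the 6.80 to 6.84 of the other DOM arrays. Its dimmer probe had a level of -3.49 on DOM replicate 3, below the -2.92 to -2.81 of the others. Without any 1 of these arrays the number of members called in the comparisons with DMSO was as before.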

How the results depend on the processing

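No change of a called member turned its direction under any alternative. The number of members called was 0 in every setting, leaving out single arrays included, for MEHP, DINCH and DOS against DMSO. For BDB against DMSO it was 0, and 1 (Hspa8) with all groups in 1 fit or a variance trend. Leaving out single arrays gave 0 to 0. For DOM against DMSO it was 2, and 1 under quantile normalization (Dnaja1), normexp or the brightest probe only (Hspd1). Leaving out single arrays gave 2 to 2. The counts of 2 include Dnaja1, called only on the dimmer probe from which nothing is read. Hspd1, called on a probe measured in both groups, lost its call under quantile normalization. It kept it in every other setting and without any single array. For DOM against DOS it was 2, and 3 under quantile normalization (with Hspa8) or with the slide as a block (with Bag3), 1 under normexp, 0 with no filter on dim probes and 0 on the brightest probe only. The counts of 2 and 3 include Dnaja1 on its dimmer probe, and the call under normexp was that of Hsph1. Leaving out single arrays gave 0 to 2. For BDB against MEHP it was 2, and 1 under quantile normalization, detection on 1 array, the slide as a block or the brightest probe only, and 0 with no filter. Leaving out single arrays gave 0 to 2. For BDB against DINCH it was 1, and 0 with no filter, with detection on 1 array and on the brightest probe only. Leaving out single arrays gave 0 to 1. The replicate block changed none of these counts, which stayed at 0 for MEHP, DINCH, BDB and DOS against DMSO, 2 for DOM against DMSO and against DOS, 2 for BDB against MEHP and 1 for BDB against DINCH. With BDB against DMSO, the difference of Bag3 ran from -0.57 to -0.50 and its adjusted p from 0.00472 to 0.407, below 0.05 in 4 of 19 alternatives. Over all genes 0 were called, and 120 with all groups in 1 fit, 100 with the slide as a block, 82 with a variance trend and 42 under normexp. Genes called over all probes fell from 202 to 3 for MEHP and from 984 to 97 for DINCH with no filter. The cause of these changes was not tested. Hspa1a and Hspb1 were too dim for a change to be measured, and the number of arrays sets the width of the intervals.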
